A study of Mus musculus with 4 samples.

Results

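Spermatogonia are the mitotic germ cells at the base of the seminiferous tubule. Most of the 36 genes described here mark their undifferentiated (stem and progenitor) or differentiating states. The genes were taken by symbol from a fixed list, and all 36 were found among the 22274 genes of the deposited table. Of these, 33 matched the table's symbol column exactly, and Zbtb16, Sox3 and Crabp1, written there in capitals, were matched by gene identifier. The symbol Rhox13 stood on 3 rows, and 2 of them, Rhox7a and Rhox7b by identifier, were left out. The list held 23 genes of undifferentiated spermatogonia, 7 of differentiating spermatogonia, 2 that act throughout the spermatogonial stages (Dazl and Dmrt1) and 4 of DNA methylation. All 36 are annotated as protein-coding.

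Poly(A) RNA was sequenced from the testes of adult mice with a knockout of Fam170a (KO, 2 libraries) and from wild-type mice (WT, 2 libraries), in a series on the role of this gene in spermiogenesis. The labels give no strain, age in weeks, deleted exon or further allele. Nothing in them says that replicates are separate mice, so the p-values speak only of the spread among these 4 libraries, which may be technical. KO replicate 2 carries the name Fam171a in its genotype label, and KO replicate 1 the name Fam170a. Fam170a had 1 count in each KO library, against 2240 and 3510 counts in the WT libraries.

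Totals were 34740160 and 41684437 counts in KO and 26029374 and 35494303 in WT. Levels are given as CPM, counts relative to the TMM-scaled library total, as mean ± SD with n = 2 per genotype. Each log2 fold change is the KO level over the WT level, given with its standard error (SE), and a gene was called at an edgeR adjusted p under 0.05 over all 15636 genes tested. The WT libraries stood further apart than the KO libraries, with chi-square statistics per degree of freedom of 9.99 between the KO libraries and 42.5 between the WT libraries.

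As background, the stem cell pool is maintained by GDNF, a growth factor from Sertoli and peritubular cells that signals through the co-receptor GFRA1 and the kinase RET, and by transcription factors downstream of it such as ETV5, BCL6B and LHX1. Retinoic acid moves progenitors into differentiation, when they take up the receptor KIT and the meiotic gatekeeper STRA8, and when the de novo DNA methyltransferases are induced. Spermatogonia are few in an adult testis dominated by spermatocytes and spermatids, so their transcripts are a small part of whole-testis RNA. In such bulk samples fewer cells of a type and less RNA per cell cannot be told apart.

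The listed transcripts lay mostly below WT in the KO libraries, by amounts that for nearly all single genes did not pass the test. Of 31 genes tested, 26 had a negative log2 fold change, beside 49.2% of all genes, and the median was -0.62 beside 0.01 for all genes. Of the 18 undifferentiated genes tested 14 were negative, and of the 7 differentiating genes 6. The counts over 31 also include Dazl, Dmrt1 and the 4 DNA methylation members, all of them negative. Id4 was the single member called, lower in KO, beside 0.908% of all genes called, 0.454% in each direction. No member was called higher. At an unadjusted edgeR p under 0.05, 13 members had negative and 1 had positive fold changes, where the shares over all genes were 12.8% and 11.8%. Both KO libraries lay below both WT libraries for 23 members and above them for 3, beside 27.9% and 29.4% of all genes. The other 5 tested members overlapped between genotypes. All these counts include Eomes, which passed the filter on low counts through its WT libraries alone, and Thy1, which passed through its KO libraries alone.

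**Figure D1:**
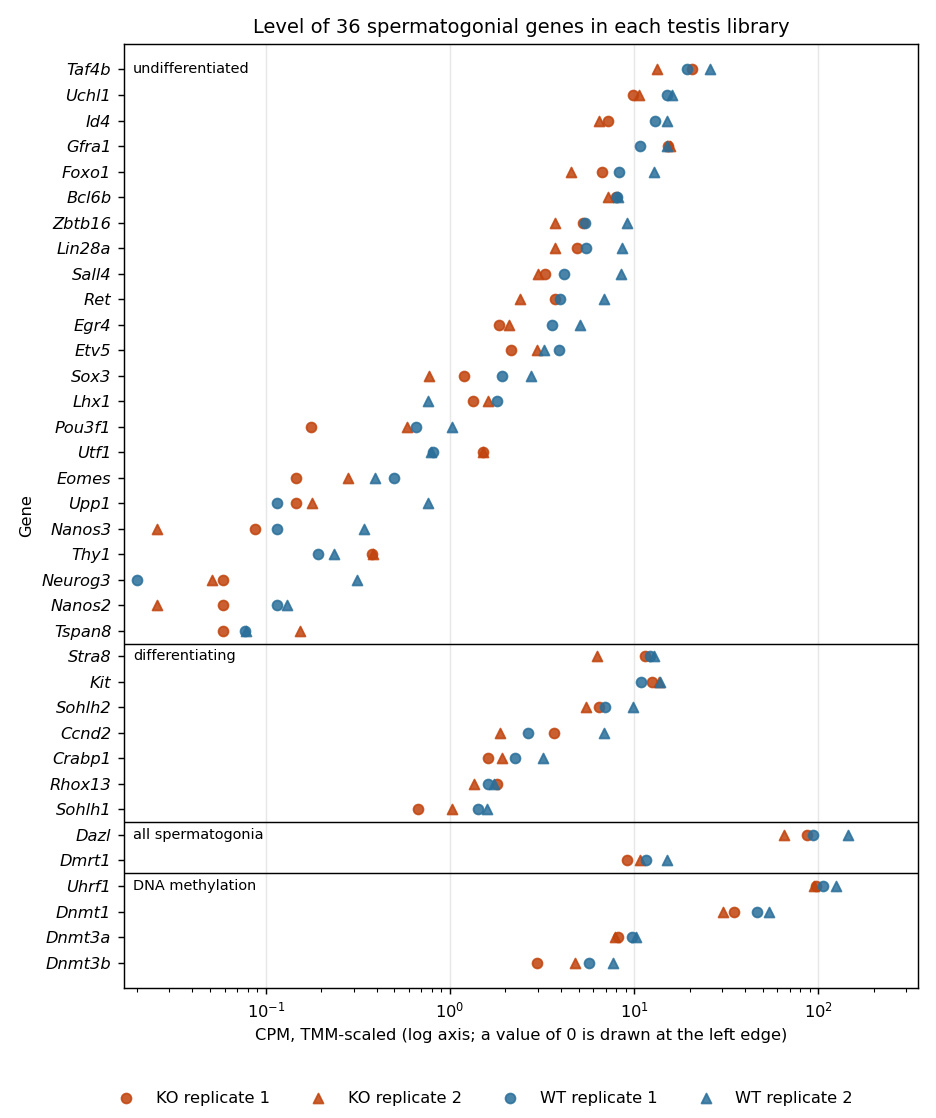
TMM-scaled CPM on a log axis for each of the 36 genes (rows, grouped by state and ordered by mean WT level), with KO libraries in orange and WT libraries in blue, circles for replicate 1 and triangles for replicate 2. Most orange points lie left of the blue ones, WT replicate 2 is the highest of the 4 libraries for 24 of the 31 genes tested, and Utf1, Thy1 and Gfra1 have both orange points on the right.

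Id4 encodes an inhibitor of DNA-binding that marks the spermatogonia richest in stem cell activity. It had 7.21 and 6.46 CPM in the KO libraries, against 13.1 and 15.2 CPM in the WT libraries. The genotypes did not overlap, and both KO values lay well below the lower WT value. The means were 6.83 ± 0.529 CPM in KO and 14.1 ± 1.49 CPM in WT, a log2 fold change of -1.05 ± 0.15 with an edgeR adjusted p of 0.04998. Over 13 alternatives the log2 fold change ran from -1.21 to -0.94. The call sat at the threshold. With all 4 libraries and no replicate block it held in 2 of 7 alternatives, with adjusted p from 6.3e-05 (DESeq2) to 0.0674. In all, the call held in 5 of the 13. These 5 include the fits without a WT library and a block with crossed replicate numbers, chosen after seeing the data. The call was lost without KO replicate 1 and without KO replicate 2. Id4 (ENSMUSG00000021379) occupies chr13:48261228-48266026 on the plus strand (GRCm38, GENCODE M21). Its exons overlap A330033J07Rik and Gm49291 on the other strand, and the sources used here do not say whether reads were counted by strand. In all, 13 members have exons that overlap a gene on the other strand, among them Id4, Gfra1 (Gm16277) and Uchl1 (Uchl1os).

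Promoter sequences are shown for Id4, for Uchl1, which had the next smallest p among the undifferentiated genes, and for Utf1 and Gfra1, which lay higher in both KO libraries. Each is the 250 bases before a start annotated by RefSeq on GRCm38.p6, 5′ to 3′ on the gene's strand, with each match to one of 4 short motifs in capitals. The windows are chr13:48260866-48261115 (plus strand) for Id4, chr5:66675871-66676120 (plus) for Uchl1, chr7:139943606-139943855 (plus) for Utf1 and chr19:58455399-58455648 (minus) for Gfra1. By GENCODE M21 the Gfra1 gene starts at 58455909 on the minus strand, so its window lies wholly inside the gene. The Uchl1 and Utf1 windows run past the GENCODE starts of these genes, 66676091 and 139943789.
Id4: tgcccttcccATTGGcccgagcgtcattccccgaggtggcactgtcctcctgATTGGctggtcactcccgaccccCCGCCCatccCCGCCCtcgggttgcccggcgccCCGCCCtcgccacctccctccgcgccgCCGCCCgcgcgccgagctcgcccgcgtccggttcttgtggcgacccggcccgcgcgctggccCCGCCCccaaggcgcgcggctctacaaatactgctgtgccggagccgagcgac
Uchl1: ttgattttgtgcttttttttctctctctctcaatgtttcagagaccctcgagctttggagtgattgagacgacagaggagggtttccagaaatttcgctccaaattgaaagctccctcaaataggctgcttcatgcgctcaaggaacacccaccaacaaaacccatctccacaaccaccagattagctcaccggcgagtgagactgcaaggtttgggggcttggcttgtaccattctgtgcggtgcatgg
Utf1: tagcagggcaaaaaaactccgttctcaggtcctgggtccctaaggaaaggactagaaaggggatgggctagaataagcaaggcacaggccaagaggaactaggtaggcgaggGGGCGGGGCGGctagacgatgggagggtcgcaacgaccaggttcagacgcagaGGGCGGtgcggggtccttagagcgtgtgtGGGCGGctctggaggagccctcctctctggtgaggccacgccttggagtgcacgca
Gfra1: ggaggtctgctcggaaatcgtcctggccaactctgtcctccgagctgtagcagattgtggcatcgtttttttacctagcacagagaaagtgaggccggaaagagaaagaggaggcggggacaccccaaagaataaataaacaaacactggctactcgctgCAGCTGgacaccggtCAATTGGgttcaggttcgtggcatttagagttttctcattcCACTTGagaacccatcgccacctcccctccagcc
The E-box was searched as CANNTG. The CCAAT motif was searched by those letters, the GC box as GGGCGG and the TATA box as TATAAA, all on both strands, and matches could overlap. Id4 held 5 GC boxes and 2 CCAAT motifs, Utf1 held 4 GC boxes, and Gfra1 held 3 E-box matches and 1 CCAAT motif, which overlaps one of them. Uchl1 held no match in this window. Of 32851 windows of that length, 66.2% held an E-box, 33.8% a CCAAT motif, 32.7% a GC box and 12.4% a TATA box. The table gave 35 windows for 26 of the 36 genes, of which 18 held an E-box, 15 a CCAAT motif, 19 a GC box and 1 a TATA box. The GC content of the 4 windows was 75.6% for Id4, 48.8% for Uchl1, 61.6% for Utf1 and 52.4% for Gfra1, beside a median of 52.4% over all windows.

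The chains of the GDNF receptor had fold changes of opposite sign, and neither passed the test. Gfra1, the co-receptor that binds GDNF, had 15.3 and 15.6 CPM in KO, against 10.7 and 15.1 CPM in WT. WT replicate 2 reached almost the KO level, and the log2 fold change was 0.25 ± 0.18 (edgeR adjusted p = 0.433), with a 95% interval of -0.20 to 0.70. Without WT replicate 1 it was -0.03. Ret, the signalling kinase of the pair, had 3.71 and 2.40 CPM in KO, against 3.96 and 6.91 CPM in WT. KO replicate 1 lay close to WT replicate 1, and the log2 fold change was -0.85 ± 0.34 (edgeR adjusted p = 0.203). Whether the fold changes of Gfra1 and Ret differ from each other was not tested. Of the other surface proteins, Thy1, an antigen used to enrich stem cells and also made by other cells, had 13 and 15 counts in KO, against 5 and 9 counts in WT, a log2 fold change of 0.81 ± 0.47 that did not pass. Tspan8, a membrane protein of the tetraspanin family, had 2 and 6 counts in KO and 2 and 3 counts in WT, too few to be tested.

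Transcription regulators of the undifferentiated state made up 14 genes, of which 13 were tested. Their median log2 fold change was -0.92, and 11 were negative. Egr4, an early growth response factor, had 1.84 and 2.09 CPM in KO, against 3.57 and 5.10 CPM in WT. The values did not overlap, and the log2 fold change of -1.15 ± 0.25 did not pass (edgeR adjusted p = 0.0985). Sox3, a high mobility group factor of progenitors on the X chromosome, had 1.20 and 0.766 CPM in KO, against 1.92 and 2.77 CPM in WT (log2 fold change -1.27 ± 0.35, edgeR adjusted p = 0.121). Foxo1, a forkhead factor that acts in stem cell maintenance, had 6.68 and 4.57 CPM in KO, against 8.30 and 12.8 CPM in WT (log2 fold change -0.92 ± 0.28, edgeR adjusted p = 0.136). For Sox3 and Foxo1 all KO values lay below all WT values and KO replicate 2 was the lowest.

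Sall4 and Zbtb16 encode zinc finger proteins of undifferentiated spermatogonia that bind each other. Sall4 had 3.30 and 3.01 CPM in KO, against 4.19 and 8.50 CPM in WT. The log2 fold change was -1.02 ± 0.35 (edgeR adjusted p = 0.158). Its WT libraries differed 2.03-fold from each other, and the log2 fold change was -0.42 without WT replicate 2 and -1.49 without WT replicate 1. Zbtb16 had 5.25 and 3.73 CPM in KO, against 5.42 and 9.21 CPM in WT. The log2 fold change was -0.72 ± 0.31 (edgeR adjusted p = 0.219). KO replicate 1 and WT replicate 1 were nearly level for Zbtb16.

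Etv5, Bcl6b and Lhx1 are among the factors that respond to GDNF. Etv5 had 2.16 and 2.99 CPM in KO, against 3.92 and 3.24 CPM in WT. The log2 fold change was -0.47 ± 0.25 (edgeR adjusted p = 0.302). Bcl6b had 7.99 and 7.25 CPM in KO, against 8.07 and 8.21 CPM in WT, and its 95% interval of -0.44 to 0.25 is among the narrowest of the group. Lhx1, at 1.34 and 1.61 CPM in KO and 1.81 and 0.759 CPM in WT, overlapped between genotypes, and its fold change was 0.24 with all libraries and -0.30 without WT replicate 2. Taf4b, a TFIID subunit needed for lasting spermatogenesis and the most abundant of the undifferentiated genes by CPM, had 20.6 and 13.4 CPM in KO, against 19.3 and 25.8 CPM in WT. Its genotypes overlapped and the log2 fold change was -0.41 ± 0.24 (edgeR adjusted p = 0.343).

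Utf1, a chromatin-associated factor of undifferentiated cells, was the member with the largest positive fold change. It had 52 and 59 counts in KO, against 21 and 30 counts in WT, which gave 1.52 and 1.51 CPM in KO and 0.807 and 0.785 CPM in WT. The values were tight within each genotype and apart between them, and the log2 fold change of 0.92 ± 0.28 did not pass (edgeR adjusted p = 0.138). It was positive under all 13 alternatives. Pou3f1, a POU-domain factor, and Eomes, a T-box factor of a stem cell subset, were low, at 0.381 ± 0.291 and 0.213 ± 0.0954 CPM in KO and 0.837 ± 0.260 and 0.446 ± 0.0756 CPM in WT. Their log2 fold changes of -1.12 ± 0.60 and -1.02 ± 0.52 did not pass. The filter on low counts admitted Eomes through its WT libraries alone and Thy1 through its KO libraries alone.

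The RNA-binding proteins and enzymes of the undifferentiated group were mostly at the limit of detection. Lin28a, which blocks maturation of let-7 microRNAs, had 4.87 and 3.73 CPM in KO, against 5.45 and 8.63 CPM in WT. The log2 fold change was -0.72 ± 0.27 (edgeR adjusted p = 0.182). Nanos2, a translational repressor that keeps stem cells from differentiating, had 2 and 1 counts in KO and 3 and 5 counts in WT. Nanos3, its relative, had 3 and 1 counts in KO and 3 and 13 counts in WT. Both Nanos genes and Neurog3, a basic helix-loop-helix factor of progenitors with 2 and 2 counts in KO and 0 and 12 counts in WT, were not tested. Upp1, uridine phosphorylase, had 5 and 7 counts in KO and 3 and 29 counts in WT. For Nanos3, Neurog3 and Upp1 most of the WT counts came from WT replicate 2. Without a filter, none of these 4 genes nor Tspan8 was called. Upp1 was called lower without WT replicate 1, a fit that admitted it through the high count of WT replicate 2.

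Uchl1 encodes a deubiquitinating enzyme widely used as a spermatogonial stain. It had 9.92 and 10.7 CPM in KO, against 15.1 and 16.1 CPM in WT. The libraries of each genotype were close together, the genotypes did not overlap, and the log2 fold change was -0.60 ± 0.12 (edgeR adjusted p = 0.0907). The 95% interval ran from -0.91 to -0.30, and in fits without 1 library the edgeR adjusted p was 0.00917 (WT replicate 1 left out), 0.0711 (WT replicate 2), 0.388 (KO replicate 1) and 0.501 (KO replicate 2). The fit without WT replicate 1 called 21.2% of all genes. DESeq2 called it lower (adjusted p = 0.0179), as it did Id4, Dnmt1, Egr4 and Foxo1, 5 members in all. DESeq2 called 6.47% of all genes, and 4.02% lower.

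**Figure D2:**
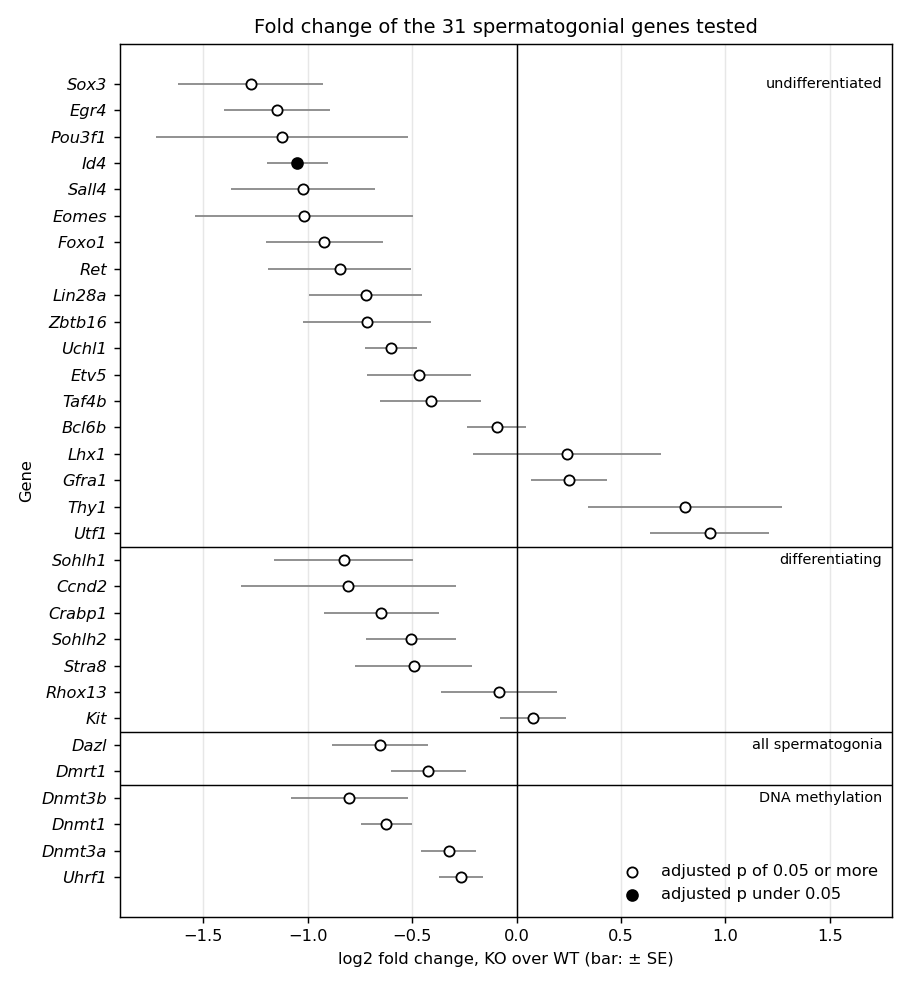
Log2 fold change, KO over WT, with its SE for the 31 genes tested, grouped by state and ordered by fold change within each group. Id4 is the filled point (adjusted p under 0.05), 26 points lie left of 0, and Utf1 and Thy1 lie furthest right.

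Differentiating markers were nearer to WT than the undifferentiated ones in the median, and none of the 7 was called. The median log2 fold change was -0.50 over the 7, against -0.72 over the 18 undifferentiated genes tested, and this difference was not tested. With edgeR, 1 of the 7 had an unadjusted p under 0.05, and DESeq2 and limma-voom called 0. Kit, the receptor for stem cell factor and the defining mark of differentiating spermatogonia, had 12.5 and 13.7 CPM in KO, against 10.9 and 13.8 CPM in WT. The genotypes overlapped, and the log2 fold change of 0.08 ± 0.16 (edgeR adjusted p = 0.801) had a 95% interval of -0.31 to 0.47. It was -0.04 with scaling by total counts and -0.14 without WT replicate 1. Leydig cells also make Kit.

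Stra8, the retinoic acid target that licenses meiosis, had 11.5 and 6.31 CPM in KO, against 12.3 and 12.8 CPM in WT. KO replicate 2 stood alone below the other 3 libraries, and the log2 fold change was -0.49 ± 0.28 (edgeR adjusted p = 0.327). With KO replicate 2 left out the log2 fold change was -0.12, and with KO replicate 1 left out it was -0.99. Crabp1, a cytosolic retinoic acid carrier, had 1.60 and 1.91 CPM in KO and 2.27 and 3.22 CPM in WT (log2 fold change -0.65 ± 0.27, edgeR adjusted p = 0.217). Sohlh1 and Sohlh2 are partner basic helix-loop-helix factors that drive Kit expression. Sohlh1 had 0.671 and 1.02 CPM in KO, against 1.42 and 1.60 CPM in WT (log2 fold change -0.83 ± 0.33, edgeR adjusted p = 0.199). Sohlh2 had 6.45 and 5.51 CPM in KO, against 6.95 and 9.91 CPM in WT (log2 fold change -0.50 ± 0.22, edgeR adjusted p = 0.219). For Stra8, Crabp1 and both Sohlh genes the genotypes did not overlap.

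Ccnd2, a D-type cyclin of cells entering differentiation, had 3.68 and 1.86 CPM in KO, against 2.65 and 6.85 CPM in WT. The genotypes overlapped, and its log2 fold change was -0.81 ± 0.52 with all libraries and 0.05 without WT replicate 2. Rhox13, a homeobox gene on the X chromosome, was at 1.58 ± 0.322 CPM in KO and 1.67 ± 0.080 CPM in WT, a log2 fold change of -0.09 ± 0.28, or 0.11 without KO replicate 2.

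Dazl, an RNA-binding protein of germ cells from spermatogonia into meiosis, was the most abundant member per length by the mean over all libraries. It was at 19.9 CPM per kilobase of exon in KO and 31.2 in WT, and Uhrf1 was higher in KO. It had 86.4 and 65.4 CPM in KO, against 93.9 and 144 CPM in WT, so that WT replicate 2 stood 1.54-fold above WT replicate 1. The log2 fold change was -0.65 ± 0.23 (edgeR adjusted p = 0.167). Dmrt1, a factor that restrains meiotic entry and is also made by Sertoli cells, had 9.13 and 10.8 CPM in KO, against 11.6 and 15.1 CPM in WT (log2 fold change -0.42 ± 0.18, edgeR adjusted p = 0.216). By the mean over all libraries, Uhrf1, Uchl1 and Stra8 came next to Dazl. Their values in CPM per kilobase were 22.6, 6.32 and 4.94 in KO and 27.1, 9.58 and 6.94 in WT. Nanos2 was lowest by that mean, at 0.0268 in KO and 0.0787 in WT, although Tspan8 (0.0456) and Thy1 (0.0714) were lower in WT.

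All 4 DNA methylation members lay below WT in both KO libraries, and none was called by edgeR. Dnmt1, the maintenance methyltransferase, had 34.8 and 30.4 CPM in KO, against 46.6 and 53.9 CPM in WT. The log2 fold change was -0.62 ± 0.12 (edgeR adjusted p = 0.0885), and it was called without a filter (adjusted p = 0.0484), without WT replicate 1 (0.0011) and without WT replicate 2 (0.0373). It was not called without KO replicate 1 (edgeR adjusted p = 0.290) or KO replicate 2 (0.519). Uhrf1, the partner that guides DNMT1 to newly copied DNA, had 97.0 and 95.2 CPM in KO, against 106 and 125 CPM in WT (log2 fold change -0.26 ± 0.11, edgeR adjusted p = 0.197). Dnmt3b, a de novo methyltransferase, had 2.98 and 4.75 CPM in KO, against 5.72 and 7.72 CPM in WT (log2 fold change -0.80 ± 0.28, edgeR adjusted p = 0.165). Dnmt3a, its relative, had 8.17 and 7.84 CPM in KO, against 9.80 and 10.3 CPM in WT (log2 fold change -0.33 ± 0.13, edgeR adjusted p = 0.202). At an unadjusted edgeR p under 0.05 all 4 were counted, DESeq2 called Dnmt1 and limma-voom called 0.

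**Figure D3:**
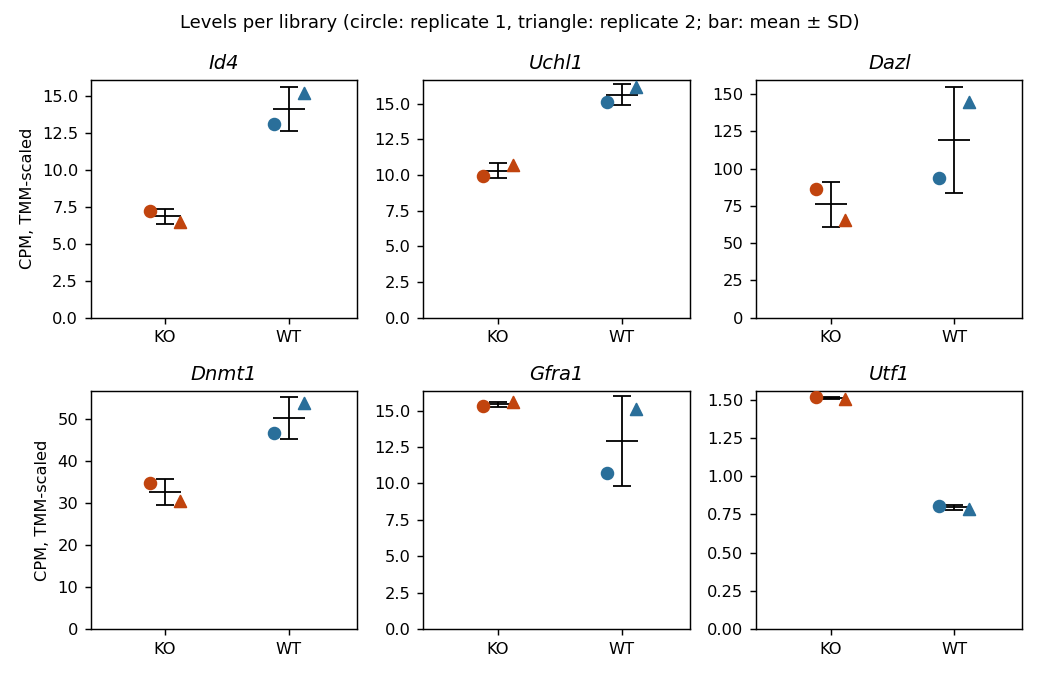
TMM-scaled CPM per library for Id4, Uchl1, Dazl, Dnmt1, Gfra1 and Utf1 (KO left, WT right, circles for replicate 1, triangles for replicate 2, bars mean ± SD, n = 2). The genotypes do not overlap for any of these genes, but KO replicate 1 of Dazl and WT replicate 2 of Gfra1 lie near the other genotype. Dazl varies most within WT, and the WT libraries of Gfra1 span 10.7 to 15.1 CPM.

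The size of the difference depended on which WT library was used. WT replicate 2 lay above WT replicate 1 for 27 of the 31 members tested, or 87.1%, beside 50.7% of all genes, and it was the highest of the 4 libraries for 24 members, beside 30.4% of all genes. KO replicate 1 lay above KO replicate 2 for 58.1% of members and 48.4% of all genes. Over the same 31 members, without WT replicate 2 the median was -0.35 and 2 members were called, Id4 and Dnmt1, beside 5.45% of all genes called and 3.01% called lower. Without WT replicate 1 it was -0.79 and 18 were called lower, beside 21.2% of all genes called and 12.6% called lower. That fit also admitted Upp1, Nanos3 and Neurog3 through their counts in WT replicate 2, and with them the median was -0.92 and 19 of 34 were called. With each KO library left out in turn 0 were called, with medians of -0.56 without KO replicate 1 and -0.53 without KO replicate 2. The sign of the median was negative in all 4 of these fits, in each of which the single library left in a genotype is assumed to vary like the pair in the other.

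**Figure D4:**
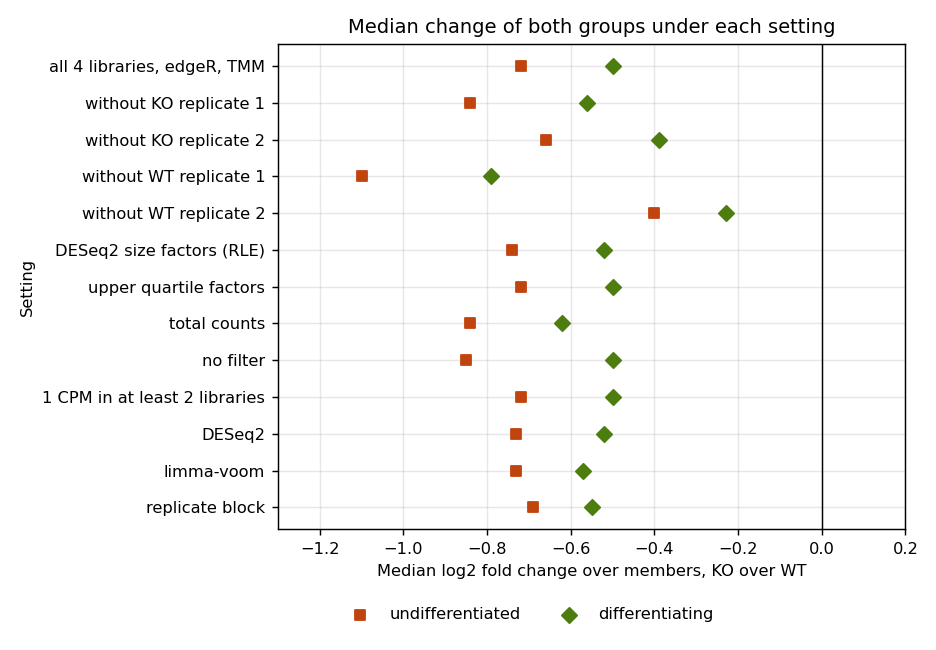
Median log2 fold change, KO over WT, of the undifferentiated (squares) and differentiating (diamonds) members under each setting (rows). Both medians stay below 0, and they move most when a WT library is left out, from -1.10 to -0.40 for the undifferentiated and from -0.79 to -0.23 for the differentiating members. Each setting takes the members it tests, and over the 18 undifferentiated members tested with all libraries the lowest median was -0.99.

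Markers of other testis cells also differed between libraries, and their part in the spermatogonial values was not tested. Summed CPM over 12 Sertoli genes was 32.1 and 39.9 in KO and 93.5 and 41.1 in WT, with 8 of 10 tested genes negative. Clu alone gave 19.5 and 25.7 CPM of these sums in KO and 68.6 and 29.0 CPM in WT. Fshr, the FSH receptor, was near 0 in every library, with 0 and 3 counts in KO and 2 and 4 counts in WT, and was not tested. Sox9 and Clu had the smallest p, with log2 fold changes of -1.96 and -1.10. Over 8 Leydig genes the sum was 6.86 and 5.69 CPM in KO and 16.4 and 9.23 CPM in WT, with all 6 tested genes negative, Insl3 at -1.69 and Star at -0.77. The Sertoli and Leydig medians were -0.68 and -0.88 with all libraries, -0.39 and -0.29 without WT replicate 1, and -1.11 and -1.38 without WT replicate 2. These somatic sums were highest in WT replicate 1, whereas the sum over undifferentiated members, 94.0 and 81.4 CPM in KO and 107 and 142 CPM in WT, was highest in WT replicate 2.

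Macrophage genes were lowest in WT replicate 2, with sums of 47.3 and 26.2 CPM in KO and 35.3 and 8.16 CPM in WT over 8 genes, and all 8 fold changes were positive (Adgre1 0.61, C1qa 1.81). Their median was 0.87 with all libraries. Leaving out WT replicate 1 moved it to 2.30, and leaving out WT replicate 2 moved it to 0.27. It was 0.46 when KO replicate 1 was dropped and 1.09 when KO replicate 2 was dropped. Peritubular and vascular genes, 8 in number, summed to 72.9 and 51.7 CPM in KO and 55.5 and 42.9 CPM in WT, and Acta2 (-0.68) and Myh11 (-0.62) had the smallest p. The fibroblast genes Dcn (1.57) and Pdgfra (1.18) lay above WT in both KO libraries, and Dcn alone gave 41.1 and 19.0 CPM of these sums in KO and 17.4 and 3.22 CPM in WT. The median of this list was -0.61 with all libraries, -0.86 without WT replicate 1 and -0.16 without WT replicate 2. With all libraries, among these 4 somatic lists edgeR and limma-voom called 0 genes and DESeq2 called Insl3 lower. At an unadjusted edgeR p under 0.05 the Sertoli and Leydig lists had 2 negative genes each and the macrophage list none. The peritubular and vascular list had 1 positive and 3 negative genes. Over all genes the shares at that p were 11.8% positive and 12.8% negative.

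Later germ cell lists gave the following values. Early meiotic genes, 12 in number, had a median of -0.25, with 0 called by edgeR or limma-voom and 4 called lower by DESeq2, beside 4.02% of all genes. At an unadjusted edgeR p under 0.05, 4 were negative, among them Hormad1 (-0.84) and Sycp2 (-0.45), beside 12.8% of all genes. The median of this list was -0.50 without KO replicate 1, -0.05 without KO replicate 2, -0.49 without WT replicate 1 and -0.05 without WT replicate 2. Its summed CPM was 1896 and 1900 in KO and 1875 and 2172 in WT, highest in WT replicate 2 as for the spermatogonial members. WT replicate 2 lay above WT replicate 1 for 9 of the 12 genes, or 75.0%. Of 10 genes of pachytene and later spermatocytes 4 had negative fold changes, and edgeR and limma-voom called 2 lower, to which DESeq2 added Mybl1. The 2 were the PIWI gene Piwil1 at 80.4 ± 5.91 CPM in KO and 246 ± 21.8 CPM in WT and the Tudor gene Tdrd1 at 49.0 ± 0.112 CPM in KO and 129 ± 14.8 CPM in WT, around a list median of 0.09. The call of Tdrd1 was lost with each KO library left out in turn. Round spermatid genes had a median of 0.25, with 9 of 10 above WT in both KO libraries, beside 29.4% of all genes. At an unadjusted edgeR p under 0.05, 7 were positive, beside 11.8% of all genes. Of the 10, 0 were called by edgeR or limma-voom and 1, Tex36, by DESeq2. Tex36 at 0.36 and Crem at 0.33 had the smallest p. Tex36 was called higher with each WT library left out in turn, and Crem without WT replicate 1. Elongating spermatid genes summed to 6386 and 9604 CPM in KO and 12257 and 4901 CPM in WT, lowest in WT replicate 2 and KO replicate 1, and all 9 overlapped between genotypes with 0 called by edgeR, DESeq2 or limma-voom. Prm2 was at -0.37 and Prm1 at -0.33, and none had an unadjusted edgeR p under 0.05. The direction of this list turned with the WT library left out: without WT replicate 1 its median was 0.54, and without WT replicate 2 it was -0.56.

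**Figure D5:**
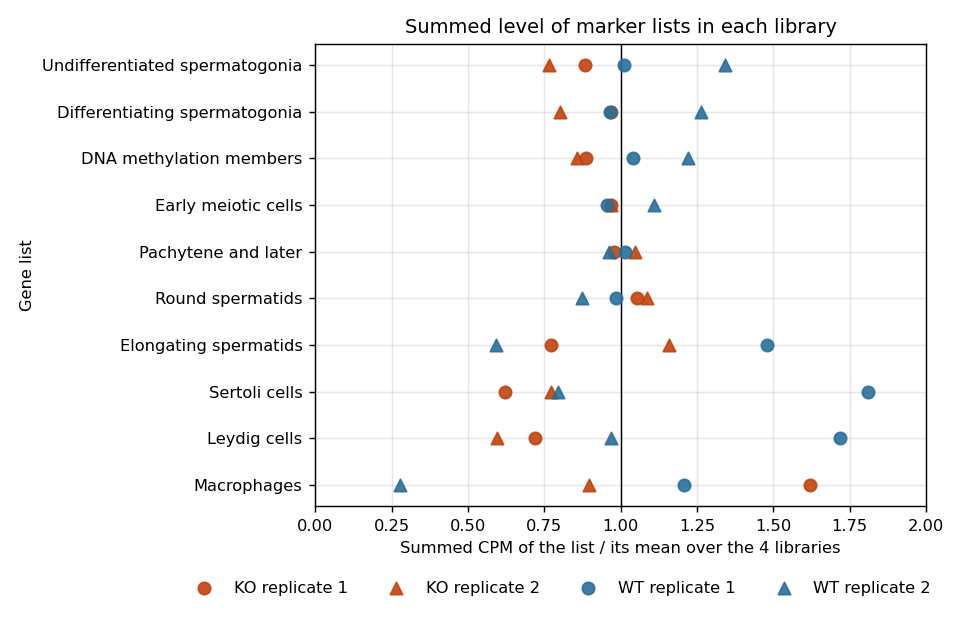
Summed CPM of each marker list divided by its mean over the 4 libraries (rows are lists, KO orange, WT blue, circles replicate 1, triangles replicate 2). WT replicate 2 is highest for the spermatogonial lists and also for early meiotic cells. It is lowest for elongating spermatids and macrophages, among others, and WT replicate 1 is highest for Sertoli and Leydig cells.

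The signals that act on spermatogonia were described from lists of their own. Of 12 niche ligands 9 were tested and edgeR, DESeq2 and limma-voom each called 0. None had an unadjusted edgeR p under 0.05, beside 24.6% of all genes, and the median of the list was 0.53. It was 0.12 without KO replicate 1, 0.80 without KO replicate 2, and 0.41 without WT replicate 1, where Igf1 was called higher. Gdnf was at 0.485 ± 0.181 CPM in KO and 0.261 ± 0.260 CPM in WT, and Kitl, the ligand of KIT, at 2.79 ± 0.763 CPM in KO and 2.87 ± 0.506 CPM in WT. Igf1 (1.08) and Cxcl12 (0.53) had the smallest p in this list. Of 20 retinoic acid genes found, 17 were tested and 0 were called by edgeR or limma-voom, with 1 positive at an unadjusted edgeR p under 0.05 and called by DESeq2. That gene was Rec8, a meiotic cohesin induced by retinoic acid, at 159.6 ± 1.46 CPM in KO and 112 ± 6.93 CPM in WT (log2 fold change 0.51 ± 0.08, edgeR adjusted p = 0.0724), followed by Dhrs3, a retinal reductase, at 0.60. Rec8 was called higher without WT replicate 1 and without WT replicate 2, and Aldh1a3 and Cyp26b1 were also called without WT replicate 1.

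Of 25 further receptors, surface proteins and targets of undifferentiated spermatogonia, 21 were tested and 0 were called by edgeR, with 1 positive and 2 negative at an unadjusted p under 0.05. The median was -0.34, and it ran from -0.63 without KO replicate 1 to -0.14 without KO replicate 2. Hmga1, a chromatin protein with a near-identical copy in the annotation that makes its counts uncertain, was at 31.3 ± 2.06 CPM in KO and 53.0 ± 4.06 CPM in WT (log2 fold change -0.76 ± 0.11, edgeR adjusted p = 0.0503), and DESeq2 and limma-voom called it. Shisa6, a marker of a stem cell fraction, was at 1.25 ± 0.175 CPM in KO and 0.564 ± 0.0908 CPM in WT, a positive value of 1.12 that did not pass. Of 16 cell division genes 0 were called by edgeR or limma-voom and 2 by DESeq2, with 2 positive and 7 negative at an unadjusted p under 0.05, led by Mcm3 (-0.80), a replicative helicase subunit, and Ccne2 (-0.99), an S-phase cyclin. The median of the cell division genes was -0.18 with all libraries, -0.33 without WT replicate 1 and -0.11 without WT replicate 2. Of 12 tested partners of DNA methylation 0 were called by edgeR or limma-voom and 1, Mbd1, by DESeq2, with 1 positive and 4 negative at an unadjusted p under 0.05. Mbd1, which binds methylated DNA, was at 5.30 ± 0.596 CPM in KO and 12.6 ± 2.28 CPM in WT (log2 fold change -1.25 ± 0.19, edgeR adjusted p = 0.0572), and Zfp57, which protects imprinted methylation, had a log2 fold change of 0.39. The median of these partners was -0.31 with all libraries, -0.54 without WT replicate 1 and -0.26 without WT replicate 2.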

How the data were processed

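The members, the gene lists and the tests were chosen with earlier results of these data known. The deposited table holds whole-number read counts per Ensembl gene, one column per library. The tools named per the submitters' processing notes are RSEM, StringTie 1.3.1, HISAT2 2.1.0, Bowtie2 2.2.8 and fastp 0.18.0. Not given in the sources used here are their order, the build, strandedness and how multi-mapping reads were treated. The genotype and number in each column name match 1 sample title. Identifiers were matched to GENCODE M21 symbols (22219 of 22274), and exon lengths came from that annotation.

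The test was edgeR 4.0.16 under R 4.3.3 (filterByExpr with a minimum count of 10 and total of 15, TMM, quasi-likelihood test, genotype as the only term, two-sided, Benjamini-Hochberg over 15636 genes, threshold 0.05). The code was tested on simulated data. The 95% intervals are 2.47 SE wide on each side. TMM factors were 0.987 and 0.940 in KO and 1.00 and 1.08 in WT. DESeq2 1.42.0, limma 3.58.1 (voom), other scalings and filters, a replicate block and leaving out each library were the alternatives. The text names all members, and from each other list the genes called and those with the 2 smallest p. Gdnf, Kitl, Fshr, Dcn, Pdgfra, Mybl1, Aldh1a3 and Cyp26b1 were added after their values were seen. Counting error sets the precision of genes with few counts.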

Additional observations from a re-analysis of the deposited data

How the results depend on the processing

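The undifferentiated and differentiating medians stayed negative under every alternative run. Across the fits that leave out 1 library, the median of the undifferentiated members ran from -1.10 to -0.40, that of the differentiating members from -0.79 to -0.23 and that of all members from -0.92 to -0.35. The lower ends came from the fit without WT replicate 1, which newly admitted Upp1, Nanos3 and Neurog3 through WT replicate 2. Over the members tested with all libraries, its medians were -0.99 for the undifferentiated and -0.79 for all members. The number of members called ran from 0 to 19 and of all genes from 21 to 3408 in these fits. With all libraries, 0 members were called with DESeq2 size factors, upper quartile factors, total counts, the filter of 1 CPM in at least 2 libraries, limma-voom and the replicate block, 2 without a filter and 5 with DESeq2. All-gene calls were 82 with total counts (32 higher and 50 lower, where the main split was 71 and 71), 451 without a filter (171 and 280) and 1011 with DESeq2 (383 and 628). Scaling by total counts moved the median of all genes tested to -0.10, beside 0.01.

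Same-numbered libraries tended to deviate in opposite directions, with a correlation across genes of -0.243. With 2 libraries per genotype this is a single comparison, so it cannot show whether the replicate numbers pair the libraries. The labels do not say. The fit with the replicate block called 9 genes and 0 members, with an adjusted p of 0.217 for Id4. A block with crossed numbers, chosen after seeing the data, called 902 genes and 5 members. Among single members, 26 of 31 kept their sign under all alternatives. The sign changed for Kit with total counts (-0.04) and without WT replicate 1 (-0.14), for Gfra1 without WT replicate 1 (-0.03), for Ccnd2 (0.05) and Lhx1 (-0.30) without WT replicate 2, and for Rhox13 without KO replicate 2 (0.11). At the other end of the fits without 1 library, the values were 0.25 for Kit, 0.52 for Gfra1, -1.37 for Ccnd2 and 0.90 for Lhx1. The cause of these changes was not tested.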
